A study of Mus musculus with 16 samples.

Results

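Endothelial and vascular muscle genes were followed in mouse hippocampus. They were 10 genes, taken as every array probe annotated with their symbols, and they had 20 of the 45281 probes on the array. The endothelial genes were Cldn5, Pecam1, Ly6c1, Slco1c1, Flt1 and Tek, with 9 probes, and the vascular muscle genes were Myl9, Myh11, Acta2 and Tagln, with 11 probes. A probe was tested where its signal stood above the array's background (detection p under 0.05) on at least 3 of the 16 arrays. This held for 14 of the 20 probes and left every one of the 10 genes with at least 1, out of 22625 tested probes on the whole array.

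Male C57BL/6J mice aged 12 or 2 months had received Δ9-tetrahydrocannabinol (THC), the psychoactive compound of cannabis, or its vehicle of ethanol, cremophor and saline. The daily THC dose was 3 mg per kg, given through an osmotic pump implanted under the skin over 28 days. All mice went through a behavioural test between days 33 and 41 and were killed on day 46, so the hippocampus was taken after the drug had been withdrawn. There were 5 arrays of THC mice at 12 months, 3 of THC mice at 2 months, 5 of vehicle mice at 12 months and 3 of vehicle mice at 2 months. Replicate numbers below follow the order of deposit within a group, name an array only and pair none. Nothing says how arrays and mice correspond, so p-values measure the spread between arrays, which may be in part technical.

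Every group spread over 3 of the 4 array slides. Slide 3 held 3 of the 5 THC arrays at 12 months, 1 THC array at 2 months and no vehicle array. The 4 arrays of slide 1 stood apart on the first principal component, at 33.7 to 50.2 against −31.3 to 0.869 for the other arrays, and that component held 32.3% of the variance. On each array 41.1% to 45.9% of probes gave a detected signal. Of 8 markers of hippocampal neurons, 7 were detected on all 16 arrays, and the probe of Neurod6, a transcription factor of pyramidal neurons, on 0. Among cell type markers, all 6 endothelial genes were detected on all 16 arrays by their brightest probe. The same held for Myl9, Myh11 and Acta2, whereas Tagln was detected on 3 of 16.

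Brain capillaries are lined by endothelial cells that form the blood-brain barrier: tight junctions seal the gaps between the cells, and transporters in their membranes select what crosses. Arteries and arterioles carry, outside the endothelium, a coat of smooth muscle cells that sets their width, and capillaries carry pericytes instead. Contraction of smooth muscle runs through an actin and myosin apparatus whose genes share control by serum response factor, which binds a DNA element called the CArG box.

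Promoter stretches of Myl9 and Acta2 are shown because the contractile genes carry the main differences below and these 2 were found in the promoter table. A CArG box has 6 letters of A or T between CC and GG, and it reads alike on both strands. Capitals mark each box in which at most 1 of the 6 letters is G or C. The RefSeq promoter table (GRCm38.p6) matched 7 of the 10 genes. The stretches lie at chr2:156775289-156775407 on the plus strand for Myl9 and at chr19:34255374-34255483 on the minus strand for Acta2.
Myl9: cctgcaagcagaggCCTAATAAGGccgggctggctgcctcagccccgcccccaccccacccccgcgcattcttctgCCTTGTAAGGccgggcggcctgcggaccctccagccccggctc
Acta2: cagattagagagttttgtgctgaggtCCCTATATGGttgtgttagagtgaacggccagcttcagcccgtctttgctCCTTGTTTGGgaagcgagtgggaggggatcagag
The boxes of Myl9 begin 161 and 99 bases before its start site, and the first of them, CCTAATAAGG, is a CArG box without an exception. Those of Acta2 begin 84 and 34 bases before its start site, and each holds 1 exception. The annotated span of Acta2 in this build reaches chr19:34255585 at its 5′ end, beyond the stretch shown. The start site used for Acta2 is thus that of the promoter table and lies inside this span. The same holds for Myl9, whose annotated span begins at chr2:156775408, just after the stretch shown and before the start site used. Of 32851 promoters of 300 bases in the table, 1.63% held a box without an exception and 9.98% a box with at most 1. Among the endothelial genes, Tek held 1 box with an exception, across its start site, and the promoters of Cldn5, Flt1, Slco1c1 and Ly6c1 held 0. These are matches of letters and no binding was measured.

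Values below are normalized probe intensities on a log2 scale, and a log2 difference of 1 is a doubling. The main result is that Myl9, Myh11 and Acta2, contractile genes of vascular muscle, had their highest mean in vehicle mice at 12 months and lower means in the other 3 groups. The endothelial genes showed no such common pattern. None of these differences passed the threshold, an adjusted p under 0.05 over all 22625 probes (limma, Benjamini-Hochberg). In whole hippocampus fewer smooth muscle cells and less RNA per cell cannot be told apart.

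Myl9 encodes the regulatory light chain of smooth muscle myosin, the chain whose phosphorylation starts contraction. It read 6.76, 6.58, 6.72, 6.51 and 6.24 on the 12-month THC arrays, against 7.13, 6.78, 7.0, 7.36 and 7.49 on the 12-month vehicle arrays. At 2 months it read 6.97, 6.50 and 6.64 on THC arrays and 6.81, 6.77 and 6.64 on vehicle arrays. All 12-month THC arrays lay below all 12-month vehicle arrays, by a gap that is small beside the range of either group, while at 2 months the THC and vehicle arrays overlapped.

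The mean of Myl9 was 6.56 ± 0.206 with THC and 7.15 ± 0.281 with vehicle at 12 months (SD, n = 5 each). The log2 difference was −0.59 ± 0.15 (SE), or 1.5-fold lower with THC, with an unadjusted p of 0.000902 and an adjusted p of 0.916 (limma). At 2 months the difference was −0.04 ± 0.19. Myl9 was the single tested member probe of 14 without overlap between THC and vehicle at 12 months, and 0.433% of all tested probes were lower without overlap.

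Myh11, the heavy chain of smooth muscle myosin and the motor of contraction, read 6.26, 5.53, 6.49, 5.83 and 5.47 on the 12-month THC arrays. On the 12-month vehicle arrays it read 7.02, 6.52, 6.40, 6.83 and 6.66. THC replicate 3, at 6.49, lay above the lowest vehicle array, and the other 4 THC arrays lay below all vehicle arrays. The 2-month values were 5.93, 5.84 and 6.63 with THC and 6.14, 5.30 and 5.83 with vehicle, with the highest value on a THC array. The log2 difference between THC and vehicle was −0.77 ± 0.22 at 12 months, 1.7-fold lower (limma adjusted p = 0.916), and 0.37 ± 0.29 at 2 months (limma adjusted p = 0.816). The 2-month difference rested on single arrays, at 0.13 without THC replicate 3 and 0.14 without vehicle replicate 2, and at 0.16 with quantile normalization alone. The other Myh11 probe was detected on no array.

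Acta2 encodes smooth muscle alpha-actin, the thin filament on which that myosin pulls. Its brightest probe read 10.26, 10.003, 10.63, 9.97 and 9.65 on the 12-month THC arrays, against 10.94, 10.59, 10.52, 10.84 and 11.17 on the 12-month vehicle arrays. THC replicate 3 again reached into the vehicle range and the other THC arrays did not. On the 2-month arrays it read 10.23, 9.76 and 11.07 with THC, against 10.26, 10.28 and 9.74 with vehicle. The mean at 12 months was 10.10 ± 0.363 with THC and 10.81 ± 0.263 with vehicle (SD, n = 5 each), a log2 difference of −0.71 ± 0.23 or 1.63-fold lower (limma adjusted p = 0.916).

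Acta2 had 4 tested probes, and they did not all give the same size. At 12 months the THC difference was −0.83 ± 0.22 for the second brightest, −0.48 ± 0.16 for the third and −0.10 ± 0.25 for the fourth, all with limma adjusted p of 0.916 or above. The fourth probe ran from 4.89 to 6.59 on the vehicle arrays of that age alone. Across the 16 arrays the brightest probe correlated at r = 0.928 with the second, 0.782 with the third and 0.388 with the fourth. At 2 months the brightest probe differed by 0.26 ± 0.29, which rested on THC replicate 3, since without it the difference was −0.10. Whether these probes separate Acta2 from other actin genes was not tested.

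Tagln, which encodes transgelin, an actin-binding protein of smooth muscle, was close to background. Its tested probe was detected on 0 of 5 THC and 2 of 5 vehicle arrays at 12 months, and on 1 of 3 THC and 0 of 3 vehicle arrays at 2 months. It read 4.42 to 4.74 with THC and 4.5 to 4.95 with vehicle at 12 months, and no fold is given because one side was not above background. The other Tagln probe was detected on no array.

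**Figure D1:**
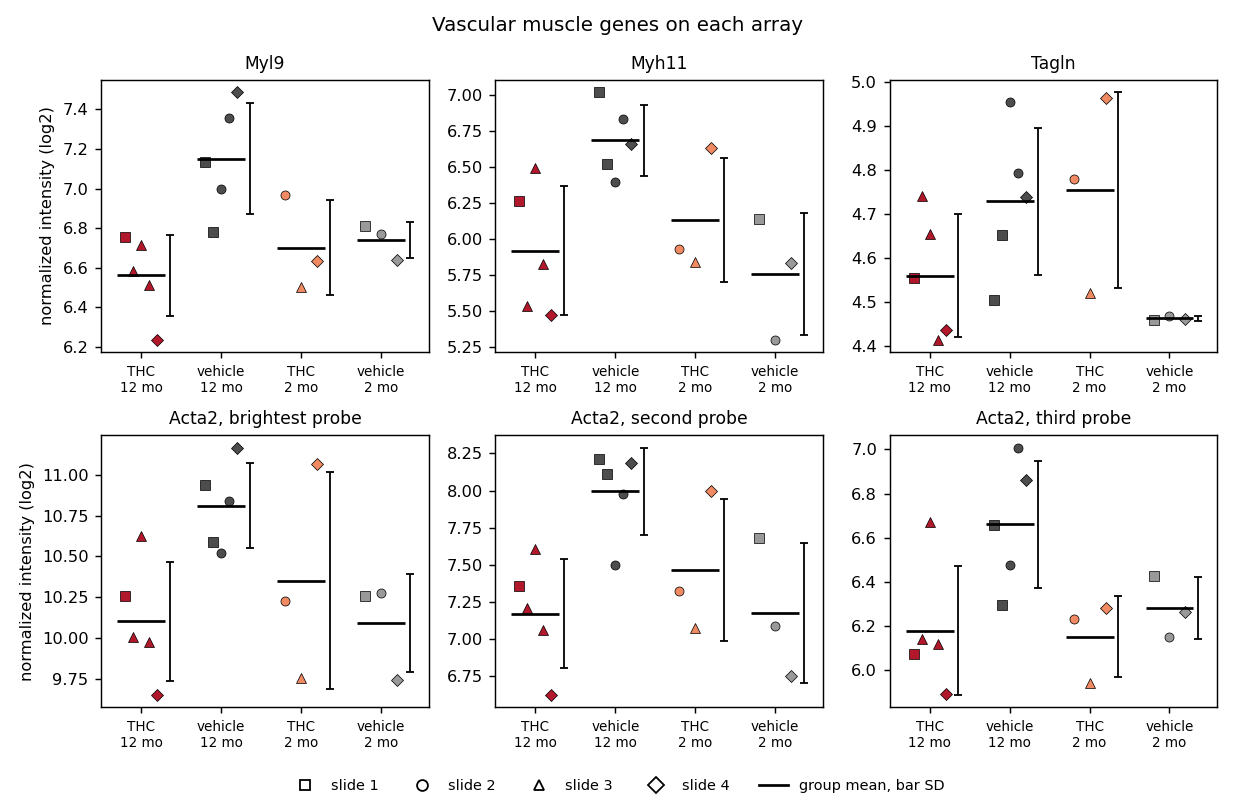
Normalized log2 intensity of the vascular muscle genes on each of the 16 arrays (points, shape giving the slide), with the group mean (line) and SD (bar), for 5, 5, 3 and 3 arrays from left to right. Myl9, Myh11 and Acta2 were highest in vehicle mice at 12 months, and the Tagln axis spans values near background, from 4.42 to 4.96.

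Myl9, Myh11 and Acta2 were also compared by age. The vehicle arrays at 12 months enter both the THC comparison at that age and the age comparison in vehicle mice, with opposite sign. Opposite differences in the 2 comparisons are thus linked by shared arrays, and each is given by its own values only. In vehicle mice the difference of 12 minus 2 months was 0.41 ± 0.17 for Myl9, 0.93 ± 0.26 for Myh11 and 0.72 ± 0.26 for Acta2 (log2, SE, 5 against 3 arrays). The limma adjusted p was 1.00, 0.865 and 1.00 in that order. Myh11 and the brightest Acta2 probe did not overlap between the ages, whereas Myl9 did, its lowest 12-month array at 6.78 lying below the highest 2-month array at 6.81.

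In THC mice the ages gave no difference past the threshold. The difference of 12 minus 2 months was −0.14 ± 0.17 for Myl9, −0.21 ± 0.26 for Myh11 and −0.25 ± 0.26 for Acta2, with limma adjusted p between 0.900 and 0.917. The 95% intervals ran from −0.50 to 0.22, from −0.76 to 0.33 and from −0.80 to 0.30, so a difference of either sign remains possible. Without 2-month THC replicate 3, an array left out after the data were seen, Myh11 was at 0.0336 and Acta2 at 0.11, so their sign turned, while Myl9 was at −0.17. The slides with both ages gave opposite signs, with 0.10 on slide 3 and −0.40 on slide 4 for Myl9, 0.11 and −1.16 for Myh11, and 0.44 and −1.42 for Acta2. The test of whether the THC response differed between the ages gave −0.55 ± 0.24 for Myl9, −1.14 ± 0.36 for Myh11 and −0.97 ± 0.37 for Acta2. Their unadjusted p-values were 0.0342, 0.00590 and 0.0182, and the limma adjusted p was 0.949 for each.

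By group mean, Myl9 ran 6.56 in 12-month THC, 6.70 in 2-month THC, 7.15 in 12-month vehicle and 6.74 in 2-month vehicle mice. Myh11 ran 5.92, 6.13, 6.68 and 5.76 in the same groups, and Acta2 10.10, 10.35, 10.81 and 10.09. Vehicle mice of 12 months were thus first for all 3 genes, and 12-month THC mice were last for Myl9 and next to last for Myh11 and Acta2. The means of the 3 lower groups of each gene differed by less than the largest of their SDs, which were 0.0906 to 0.239 for Myl9, 0.425 to 0.449 for Myh11 and 0.301 to 0.664 for Acta2.

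For THC at 12 months slides 1 and 4 gave the same direction for the brightest probes of Myl9, Myh11 and Acta2, at unequal size. Slides 1 and 4 each held 1 THC array of 12 months beside vehicle arrays of that age. The within-slide values thus rest on THC replicates 1 and 5. Their means of choroid plexus markers were 7.998 and 8.36, against 4.88 to 5.41 on the other 12-month THC arrays. On slide 4 the values compare the lowest and the highest of the 16 arrays for the mean of the 4 vascular muscle genes. These were THC replicate 5 at 6.45 and vehicle replicate 5 at 7.51. The part of tissue content in the within-slide values was not tested. The difference of THC minus vehicle was −0.20 and −1.25 for Myl9, −0.51 and −1.19 for Myh11, and −0.51 and −1.51 for Acta2 on slides 1 and 4. With the slide as a block in the fit it was −0.52 for Myl9, −0.77 for Myh11 and −0.64 for Acta2, with limma adjusted p of 0.269, 0.259 and 0.434. The fourth Acta2 probe was at 0.69 on slide 1 and −1.05 on slide 4. With quantile normalization alone the differences of Myl9 and Myh11 were −0.34 and −0.36. On slide 3, with its 4 THC arrays, Myl9 ran from 6.50 to 6.72, below every array of slides 1 and 2. For THC, slide 3 and group cannot be told apart.

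By age in vehicle mice, the 3 slides with both ages gave 0.15, 0.41 and 0.85 for Myl9, 0.63, 1.31 and 0.82 for Myh11, and 0.51, 0.40 and 1.42 for Acta2 on slides 1, 2 and 4. All 9 of these differences, each of a brightest probe, were above 0, and each rests on 1 array of 2 months. The fourth Acta2 probe was at −0.61 on slide 1. With quantile normalization alone the age difference was 0.25 for Myl9 and 0.42 for Myh11. At 2 months the THC difference of Acta2 was −0.05 on slide 2 and 1.32 on slide 4, where THC replicate 3 lies.

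Among the endothelial genes, Cldn5 encodes claudin-5, the main tight junction protein of brain endothelium. It averaged 9.54 ± 0.218 with THC and 9.57 ± 0.295 with vehicle at 12 months (SD, n = 5 each), and 9.49 ± 0.132 with THC and 9.49 ± 0.367 with vehicle at 2 months (SD, n = 3 each). The THC difference at 12 months was −0.03, with a 95% interval from −0.38 to 0.31, and the age difference in vehicle mice was 0.08, with an interval from −0.32 to 0.48. Such intervals do not show that the groups are equal.

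Pecam1 encodes CD31, an adhesion molecule at endothelial cell contacts. The brighter of its 2 tested probes ran from 5.58 to 6.64 with THC and from 5.93 to 6.67 with vehicle at 12 months, and from 5.91 to 6.76 with THC and from 6.22 to 6.88 with vehicle at 2 months. Its THC difference at 12 months was −0.18 ± 0.21, while the dimmer probe was at 0.31 ± 0.21. The 2 probes correlated at r = −0.224 across the 16 arrays and give Pecam1 no common direction. With the slide as a block they were at 0.01 and 0.19.

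Ly6c1, a surface protein of endothelial cells and of some leukocytes, read 8.18, 8.17, 8.42, 8.08 and 7.84 on the 12-month THC arrays and 8.41, 8.42, 8.16, 8.40 and 8.54 on the 12-month vehicle arrays. The groups overlapped through THC replicate 3 and vehicle replicate 3. The difference was −0.25 ± 0.12 (unadjusted p = 0.0535, limma adjusted p = 0.916), and within slides 1 and 4 it was −0.23 and −0.71. At 2 months it was 0.05 ± 0.15. Whether the probe separates Ly6c1 from its close relative Ly6c2 was not tested.

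Slco1c1 encodes OATP1C1, which carries thyroxine across the blood-brain barrier and is also made by astrocytes. It read 8.73, 8.85, 8.97, 8.76 and 9.09 on the 12-month THC arrays, against 8.76, 8.58, 8.52, 8.62 and 8.75 on the 12-month vehicle arrays. At 2 months it read 8.69, 8.85 and 8.97 with THC, against 8.97, 9.16 and 9.03 with vehicle. In vehicle mice all 5 arrays of 12 months lay below all 3 arrays of 2 months, a pattern opposite in direction to that of the contractile genes.

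That age difference of Slco1c1 was −0.41 ± 0.12, or 1.33-fold lower at 12 months (unadjusted p = 0.00414, limma adjusted p = 0.928). Within slides 1, 2 and 4 it was −0.30, −0.58 and −0.29. The THC difference was 0.23 ± 0.11 at 12 months and −0.22 ± 0.14 at 2 months, and the difference between those responses was 0.45 ± 0.17 (unadjusted p = 0.0188, limma adjusted p = 0.949). In THC mice the ages differed by 0.04 ± 0.12. Choroid plexus markers had the same signs for THC at 12 and 2 months and for age in vehicle mice. Their medians were 0.91, −1.07 and −1.28. These markers averaged highest on 2-month vehicle replicate 2, at 9.09, and 12-month THC replicate 5, at 8.36. Slco1c1 was also highest on these arrays, at 9.16 and 9.09. On 12-month THC replicate 1 the markers were at 7.998, but Slco1c1 was lowest of its group, at 8.73. The part of choroid plexus in Slco1c1 was not tested.

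Flt1 and Tek are the 2 receptors of the endothelial set. Flt1, the VEGF receptor 1, binds vascular endothelial growth factors and holds them back from the main signalling receptor. Its brightest probe averaged 10.30 ± 0.194 with THC and 10.18 ± 0.193 with vehicle at 12 months (SD, n = 5 each), and 10.02 ± 0.266 with THC and 10.05 ± 0.128 with vehicle at 2 months (SD, n = 3 each). The THC difference was 0.12 ± 0.13 at 12 months and −0.03 ± 0.17 at 2 months. Its other probe was detected on 1 array only.

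Tek encodes TIE2, the receptor of the angiopoietins, which keeps vessels stable. It read 7.94, 7.66 and 8.10 on the 2-month THC arrays and 7.72, 7.42 and 7.54 on the 2-month vehicle arrays, so that all but THC replicate 2 lay above the vehicle arrays. At 12 months it read 7.40, 7.40, 7.24, 7.52 and 7.19 with THC and 7.70, 7.5, 7.32, 7.64 and 7.45 with vehicle. In THC mice all 5 arrays of 12 months lay below all 3 arrays of 2 months.

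The THC difference of Tek at 2 months was 0.34 ± 0.15, or 1.27-fold higher (unadjusted p = 0.0394, limma adjusted p = 0.781), and 0.52 and 0.56 within slides 2 and 4. At 12 months it was −0.17 ± 0.12. The age difference was −0.55 ± 0.14 in THC mice, 1.47-fold lower at 12 months (unadjusted p = 0.000886, limma adjusted p = 0.338), and −0.04 ± 0.14 in vehicle mice. Within slides 3 and 4 the age difference in THC mice was −0.28 and −0.92. The difference between the THC responses of the 2 ages was −0.51 ± 0.19 (unadjusted p = 0.0172, limma adjusted p = 0.949).

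**Figure D2:**
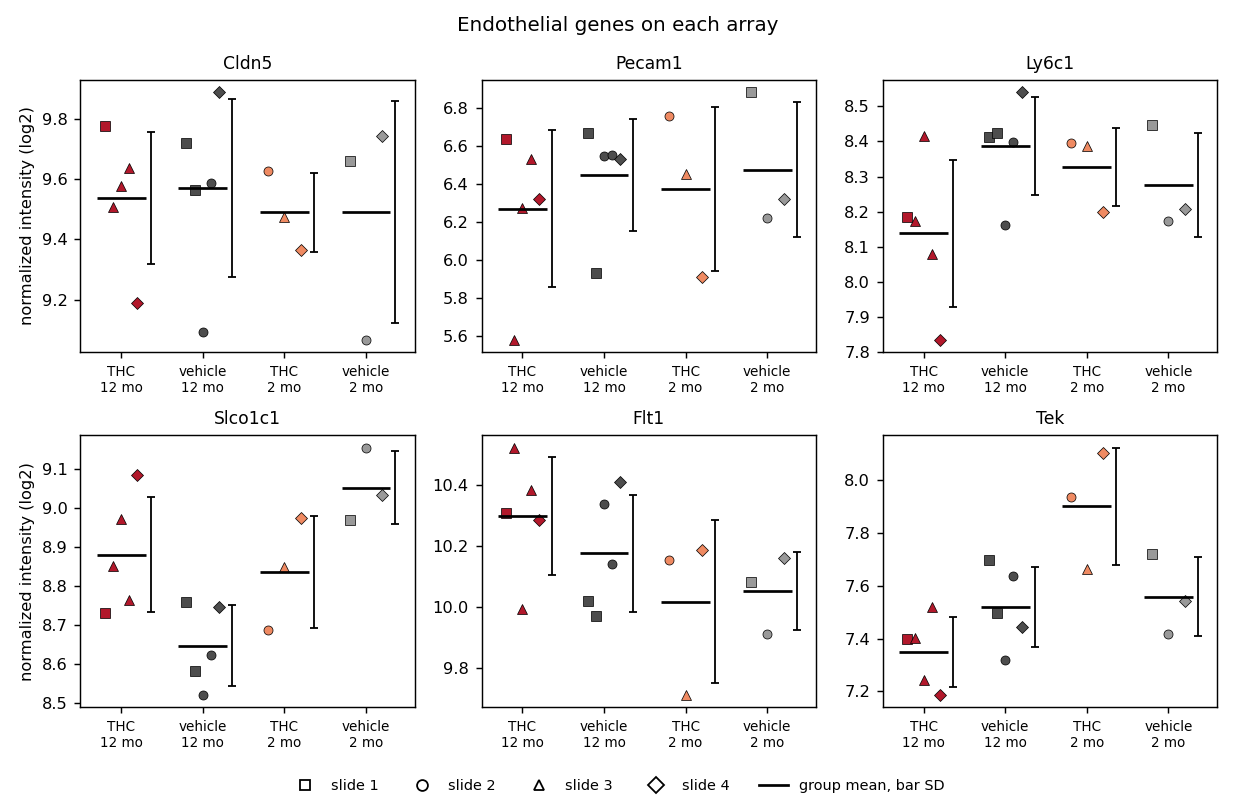
Normalized log2 intensity of the brightest probe of each endothelial gene on each of the 16 arrays (points, shape giving the slide), with the group mean (line) and SD (bar). The 12-month vehicle arrays were lowest as a group for Slco1c1, the 2-month THC arrays were highest as a group for Tek, and the 4 groups of Cldn5, Pecam1 and Flt1 overlapped.

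Counted over the members, 6 of the 14 tested probes had an unadjusted p under 0.05 for THC at 12 months, 5 lower and 1 higher, against 4.77% of all tested probes (2.91% lower and 1.87% higher). The 5 lower ones were Myl9, Myh11 and 3 probes of Acta2, which are 3 genes, and the higher one was Slco1c1. For THC at 2 months it was 1 of 14, Tek, against 6.12% of all tested probes. For age in vehicle mice it was 5 of 14, 4 higher and 1 lower, against 4.56% (2.61% higher and 1.95% lower). The 4 higher ones were Myl9, Myh11 and the brightest and second brightest probes of Acta2, which are 3 genes. For age in THC mice it was 1 of 14, Tek, against 7.33%. For the difference of the THC responses it was 7 of 14, 6 lower and 1 higher, against 5.21% (2.44% lower and 2.77% higher), and 1 of the 6 lower probes was that of Tagln. The 6 lower probes also held both the brightest and the second brightest of Acta2. The limma test called 0 of 14 member probes in all 5 comparisons, and 0% of all tested probes. With the slide as a block it called 0 of 14 member probes again, with 0.137% of all tested probes for THC at 12 months and 0.00884% for age in vehicle mice. The members were chosen with earlier results of these data known, so the counts here and below describe them and test nothing.

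Groups without overlap were counted over the 13 member probes other than that of Tagln, which passed the filter only through arrays of the groups where it read higher. By age in vehicle mice, 2 of the 13 were higher without overlap (Myh11 and the brightest Acta2 probe) against 1.44% of all tested probes, and 1 was lower, Slco1c1, against 1.22%. By age in THC mice 1 was lower, Tek, against 2.7%. Across the 4 vascular muscle genes the median log2 difference was −0.65 with THC at 12 months, 0.27 with THC at 2 months and 0.56 with age in vehicle mice. Without Tagln, left out after the data were seen, the median of the other 3 was −0.71, 0.26 and 0.72. At 2 months the median of the 4 genes was 0.0602 without THC replicate 3 and 0.13 with quantile normalization alone. That of the 6 endothelial genes was −0.10, −0.02 and 0.03. Over all tested probes the median was between −0.00476 and −0.00205 in these 3 comparisons. With quantile normalization alone, which leaves the background in, the vascular muscle medians were −0.35 for THC at 12 months and 0.33 for age in vehicle mice.

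**Figure D3:**
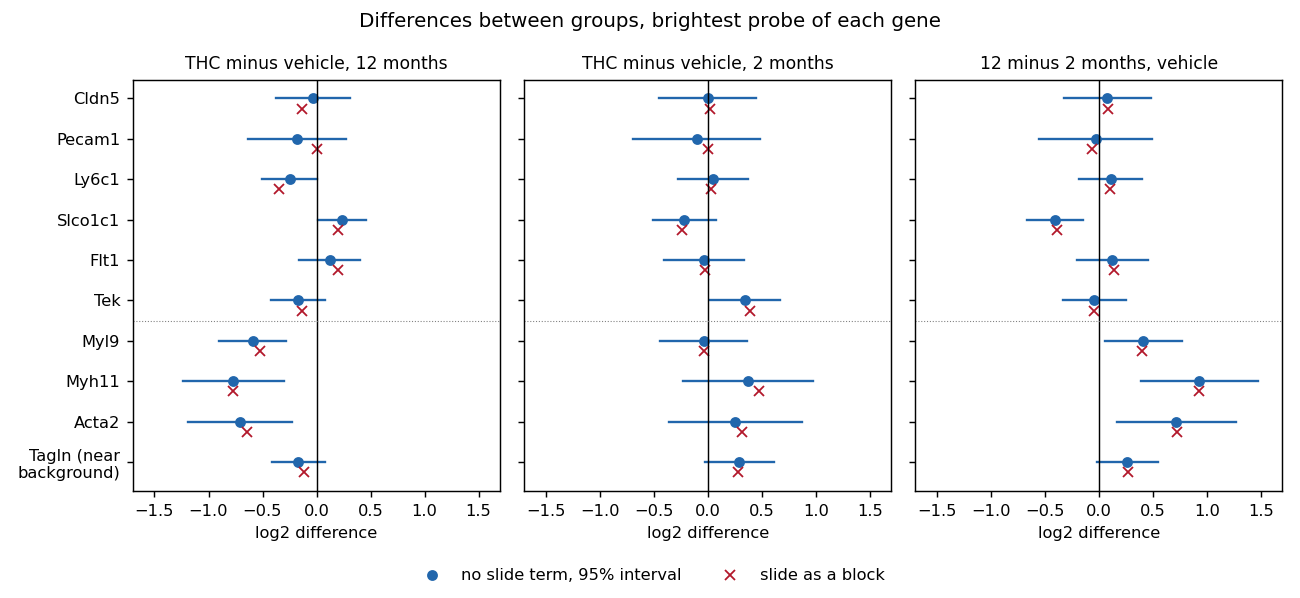
Log2 difference of the brightest probe of each gene in 3 comparisons (points), with the 95% interval of the fit without a slide term (lines) and the difference with the slide as a block (crosses), genes from top to bottom and endothelial genes above the dotted line. Myl9, Myh11 and Acta2 lay below 0 for THC at 12 months and above 0 for age in vehicle mice, and most endothelial intervals held 0.

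Other genes of vessels were then read from lists of markers, with 1 probe per gene. Of 16 further smooth muscle genes 9 were tested. Their median difference was −0.12 for THC at 12 months (7 of 9 lower), 0.20 at 2 months (2 of 9 lower) and 0.15 for age in vehicle mice (4 of 9 lower), where 51.2%, 50.4% and 50.5% of all tested probes were below 0. With the slide as a block the 2-month median was −0.08, so its direction turned. Limma called 0 of 9, and 2, 2 and 3 of 9 had an unadjusted p under 0.05, against 4.77%, 6.12% and 4.56% of all tested probes. Contractile markers such as Cnn1, calponin of smooth muscle, and Lmod1 were detected on no array.

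Tpm2, a tropomyosin of muscle thin filaments, averaged 5.80 ± 0.513 with THC and 6.37 ± 0.146 with vehicle at 12 months, and 6.13 ± 0.0890 with THC and 5.48 ± 0.309 with vehicle at 2 months. Its differences were −0.56 ± 0.20 and 0.66 ± 0.25 for THC, and 0.89 ± 0.23 for age in vehicle mice. Its other probe was at 0.13 and 0.48 for THC and at 0.20 for age. With quantile normalization alone the brighter probe was at −0.23, 0.25 and 0.36. Mustn1, a small nuclear protein of muscle, differed by −0.73 ± 0.25 for THC at 12 months and by 0.78 ± 0.29 for age in vehicle mice, with its other probe at −0.42 and 0.45. Des, the intermediate filament protein desmin, was near background at 2 months, at 5.16 to 5.46 with THC, detected on 3 of 3 arrays, and at 4.75 to 4.93 with vehicle, detected on 1 of 3. The limma adjusted p of these genes lay between 0.781 and 1.00.

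Of 33 further endothelial genes 27 were tested. Their median difference was −0.10 for THC at 12 months, −0.03 at 2 months and −0.04 for age in vehicle mice, with 17, 15 and 16 of 27 lower. With the slide as a block the medians were −0.04, 0.03 and −0.04. Of all tested probes 51.2%, 50.4% and 50.5% were below 0 in these comparisons. Limma called 0 of 27, and 0, 0 and 2 of 27 had an unadjusted p under 0.05, against 4.77%, 6.12% and 4.56% of all tested probes. Vwf, the von Willebrand factor of endothelial storage granules, differed by −0.41 ± 0.21 for THC at 12 months and by 0.77 ± 0.25 for age in vehicle mice, the same signs as the contractile genes. Slc38a5, a glutamine transporter, differed by −0.64 ± 0.17 with age in vehicle mice, with vehicle arrays at 6.22 to 6.88 at 12 months and at 7.20 to 7.29 at 2 months. Tie1, the partner receptor of Tek, was at −0.23 ± 0.14 with THC at 12 months. At 2 months Sox17, a transcription factor of arterial endothelium, was at 0.54 ± 0.26 with THC, but at 0.26 with slide blocks and at 0.23 by its other probe. Egfl7, a secreted protein of endothelium, was at −0.31 ± 0.15 with THC at 2 months, with other Egfl7 probes from −0.36 to 0.47. The limma adjusted p was 0.781 or above for all of these endothelial genes.

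Pericyte genes gave no common direction, with 10 of 11 tested and medians of −0.03, −0.03 and 0.01 in the same 3 comparisons. Limma called 0 of 10, and 1 of 10 had an unadjusted p under 0.05 in each, against 4.77%, 6.12% and 4.56% of all tested probes. Rgs5, a regulator of G protein signalling and a pericyte marker, averaged 5.89 ± 0.632 with THC and 6.67 ± 0.488 with vehicle at 2 months (SD, n = 3 each), a difference of −0.78 ± 0.36. Cspg4, the proteoglycan NG2 that precursors of oligodendrocytes also make, was at −0.30 ± 0.15 and −0.35 ± 0.19 for THC at 12 and 2 months, and Anpep, an aminopeptidase of pericytes, at −0.61 ± 0.24 at 12 months, where it was detected on 3 of 5 THC and 5 of 5 vehicle arrays. With age in vehicle mice Vtn, vitronectin, was at 0.46 ± 0.17 and Higd1b at −0.32 ± 0.19. The limma adjusted p was 0.781 or above for all of these.

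The growth factors and receptors around Flt1 and Tek were read last. Of 11 genes 10 were tested, and limma called 0 of 10. For THC at 12 months, THC at 2 months and age in vehicle mice, 2, 1 and 2 of 10 had an unadjusted p under 0.05. The shares of all tested probes were 4.77%, 6.12% and 4.56%. The median difference of the list was −0.12, −0.06 and −0.02 in that order, with 7, 6 and 5 of 10 lower. Of all tested probes 51.2%, 50.4% and 50.5% were below 0. With the slide as a block the medians were −0.06, 0.0049 and −0.03. Angpt2, the angiopoietin that opposes stable TIE2 signalling, averaged 6.53 ± 0.226 with THC and 7.06 ± 0.186 with vehicle at 12 months, and 6.55 ± 0.746 with THC and 6.25 ± 0.482 with vehicle at 2 months. Its differences were −0.53 ± 0.23 for THC at 12 months (−0.34 with slide blocks) and 0.82 ± 0.26 for age in vehicle mice, again the signs of the contractile genes. Angpt1, the activating ligand of TIE2, read 4.85 to 5.54 in 12-month vehicle mice, detected on 5 of 5 arrays, and 4.61 to 5.06 in 2-month vehicle mice, detected on 1 of 3. Nrp1, a co-receptor for VEGF that neurons also express, was at 0.40 ± 0.16 for THC at 12 months, with its other probes from 0.18 to 0.27, and Vegfa, the main ligand of the VEGF receptors, at 0.44 ± 0.20 for THC at 2 months. The limma adjusted p of Angpt2, Nrp1 and Vegfa lay between 0.781 and 0.995.

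Correlations between members were read across the 16 arrays. The 6 pairs of vascular muscle genes correlated at r = 0.42 to 0.84, highest for Acta2 with Myh11, with a median of 0.634. After each group's mean was taken out they ranged from 0.134 to 0.696, with a median of 0.406. These ranges and medians include pairs with Tagln, which was near background. The 3 pairs without Tagln ran from 0.68 to 0.84, and from 0.375 to 0.696 with group means out. The 15 endothelial pairs ran from −0.383 to 0.573, highest for Cldn5 with Ly6c1, with a median of −0.0763. With group means out they ran from −0.323 to 0.691, with a median of 0.0806, so the ranges of the 2 sets overlapped. These arrays share slides and groups, so the values describe this set of arrays.

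Genes were also ranked, among 12010 others, by likeness to the mean of the standardized values of the 4 vascular muscle genes. Each of the 4 had equal weight, so Tagln, near background, entered this mean. Most like it were Tnfsfm13 at r = 0.871, Serping1 at 0.833, Mrgprf and Hcar1 at 0.822 each, and Angpt2 at 0.818 over 16 arrays. Serping1 encodes the inhibitor of complement component C1, and Hcar1, a lactate receptor, was detected on 8 of the 16 arrays. With group means taken out their r was 0.636 to 0.785. Most like the endothelial mean were Fiz1 at 0.818, Baalc at 0.797, Srek1ip1 at 0.795, Spout1 at 0.779 and Ifitm10 at 0.771. Pairs of the endothelial genes had a median r of −0.0763, so likeness to their mean marks no shared endothelial pattern. Both rankings give the highest of 12010 values of r, and how high these run by chance over 16 arrays was not tested.

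Meningeal, fibroblast and red cell markers had the same signs as the contractile genes for THC at 12 months and for age in vehicle mice. All 13 tested of 14 meningeal and fibroblast markers were lower with THC at 12 months, with a median of −0.55, and all 13 were higher with age in vehicle mice, with a median of 0.86. Beside this list and the tissue and neuron lists that follow, 51.2% of all tested probes were below 0 for THC at 12 months. For age in vehicle mice the share was 50.5%. Their array means ran from 7.06 to 7.75 in 12-month THC, 7.83 to 8.41 in 12-month vehicle, 7.07 to 7.93 in 2-month THC and 7.07 to 7.70 in 2-month vehicle mice. In this list Col3a1 was detected on no array and Col1a2 on 8. The highest 2-month THC array for this list, replicate 3, was also the highest of its group for Acta2 and Myh11.

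Red cell markers were lower for 4 of 4 tested genes with THC at 12 months, with a median of −0.38 (−0.25 with slide blocks), and higher for 4 of 4 with age in vehicle mice, with a median of 1.08. Their array means ran from 10.45 to 11.24 in 12-month THC, 10.82 to 11.97 in 12-month vehicle, 10.05 to 10.74 in 2-month THC and 9.75 to 10.90 in 2-month vehicle mice. The mean of the 4 vascular muscle genes, Tagln included, correlated at r = 0.773 with the meningeal mean and 0.576 with the red cell mean over the 16 arrays. With group means taken out these were 0.582 and 0.46. For the endothelial mean these were −0.0653 and −0.0924, and −0.0262 and 0.0878 with group means taken out. The part of these tissues in the differences of Myl9, Myh11 and Acta2 was not tested.

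Choroid plexus markers went the other way, 11 of 11 higher with THC at 12 months (median 0.91, and 2.37 with slide blocks) and 11 of 11 lower with age in vehicle mice (median −1.28). Their array means spread from 4.88 to 8.36 in 12-month THC and from 4.92 to 6.90 in 12-month vehicle mice. At 2 months they spread from 5.26 to 6.21 with THC and from 5.57 to 9.09, the latter on replicate 2, with vehicle. They correlated with the vascular muscle mean at r = −0.386, and at −0.115 with group means taken out. Striatal and myelin markers were higher with THC at 12 months, 7 of 7 and 9 of 9, with medians of 0.54 and 0.48, which a fit with slide blocks put at 1.10 and 0.997. Thalamic markers were lower there, 6 of 6, with a median of −0.30 that turned to 0.46 in that fit. With age in vehicle mice striatal and myelin markers were lower, 7 of 7 and 9 of 9, with medians of −0.29 and −0.52. Thalamic markers were higher with age, 6 of 6, with a median of 0.60. Striatal, myelin and thalamic means correlated with the vascular muscle mean at r = −0.462, −0.379 and 0.514. With group means taken out these were −0.0819, 0.0943 and 0.408.

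Markers of hippocampal neurons were higher with THC at 12 months for 6 of 7 genes, with a median of 0.52 (0.64 with slide blocks). They were lower with age in vehicle mice for 4 of 7, with a median of −0.46. Their array means ran from 9.09 to 9.70 in 12-month THC, 9.09 to 9.47 in 2-month THC, 8.12 to 9.69 in 12-month vehicle and 9.08 to 9.69 in 2-month vehicle mice. They correlated with the vascular muscle mean at r = −0.454, and at −0.203 with group means taken out. Vehicle replicate 5 of 12 months was the lowest of the 16 arrays for these neurons, at 8.12, and the highest for the vascular muscle genes at 7.51, the meningeal list at 8.41 and the red cell list at 11.97. Without it the differences for THC at 12 months were −0.51 for Myl9, −0.78 for Myh11 and −0.62 for Acta2. The part of these cells and tissues was not tested either.

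**Figure D4:**
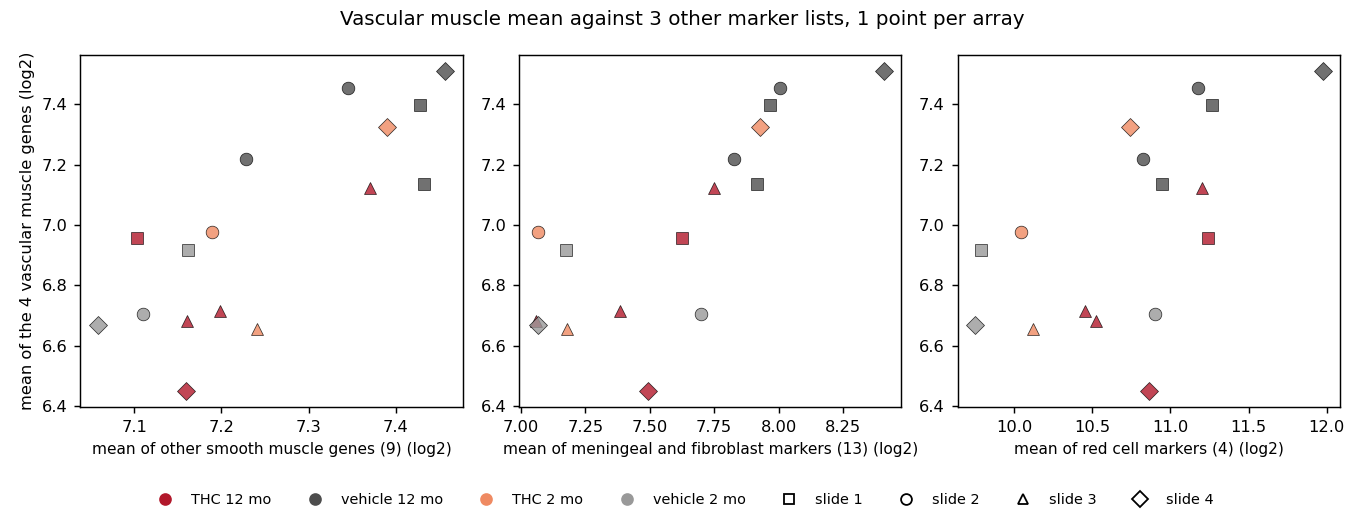
Mean log2 intensity of the 4 vascular muscle genes (vertical) against the mean of 9 other smooth muscle genes, 13 meningeal and fibroblast markers and 4 red cell markers (horizontal), 1 point for each of the 16 arrays, colour giving the group and shape the slide. The 5 vehicle arrays of 12 months lay at 7.14 to 7.51 on the vertical axis, and the 5 THC arrays of 12 months at 6.45 to 7.12.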

How the data were processed

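Hippocampal total RNA was labelled with biotin as cRNA and read on 16 Illumina bead arrays, per the labels. For every probe and array the authors deposited a scanner intensity in log2, not normalized between arrays, together with a detection p-value, per the file headers. The log2 values of the deposited series matrix lay within 0.00713 of the scanner values after quantile normalization, so the authors' matrix is taken as quantile normalized. The submitters' processing notes name Partek without a role. Whether background had been subtracted is not given in the sources used here.

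The scanner values were corrected for background and normalized by quantiles with limma's neqc, at an offset of 16, which compresses differences of dim probes (limma 3.58.1, R 4.3.3). In 1 array 26 detection p cells held text. They counted as missing for the filter, were filled by interpolation for neqc, and none belonged to the 10 genes. Limma then fitted 22625 probes with a mean for each group, with two-sided moderated tests and Benjamini-Hochberg adjustment over all of them, and was tested on simulated arrays. Gene names came from the platform annotation, in which 18 probes had several symbols and 10378 none, and 34807 of 34903 entries matched RefSeq by Entrez ID. The brightest tested probe stands for a gene. From each vessel list the 2 genes with the smallest p in each of 3 comparisons were named, and for likeness the 5 genes with the highest r. The members and lists were chosen with earlier results of these data known. Alternatives were the normalization, the filter, the slide as a block, the variance model, array weights, the compared groups alone, no slide 1 and each array left out. Plots were made in matplotlib 3.10.9 (Python 3.11.15). Precision is limited by the number of arrays in a group.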

Additional observations from a re-analysis of the deposited data

Results flagged for a closer look

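Pecam1, the CD31 adhesion molecule, read 5.93 on vehicle replicate 2 at 12 months, below the other 4 arrays of its group, which lay at 6.53 to 6.67. Of 20 groups of 5 arrays examined for the 10 genes this was the 1 in which a single array stood that far from the rest, and chance alone marks about 1 in 20. Without it the Pecam1 difference for THC at 12 months was −0.31.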

How the results depend on the processing

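The 16 leave-one-out settings and 10 other alternatives were applied to THC at 12 months, THC at 2 months and age in vehicle mice. Counted for each of the 10 genes, by its brightest probe, and each comparison, they gave 777 values. Leaving out an array of neither compared group kept the difference as it was, so these are not 777 separate checks. None of the 777 passed the adjusted p of 0.05, and the lowest among them was 0.259 (limma, Myh11 with the slide as a block). Over those settings Myl9 stayed below 0 for THC at 12 months, from −0.77 to −0.34, and Myh11 from −0.91 to −0.36, and both were smallest with the background left in. Acta2 ran from −0.84 to −0.60. With age in vehicle mice they ran from 0.25 to 0.58, from 0.42 to 1.12 and from 0.54 to 0.83. Counts over all probes were 0 throughout for THC at 2 months and for the difference of the responses. For THC at 12 months the count was 31 with the slide as a fixed block and 0 otherwise. For age in vehicle mice it was 3 both for quantile normalization alone and for the series matrix, 2 without a filter, with the strict filter, with either kind of slide block and at an adjusted p under 0.1, and 1 with trend and robust variances. Leaving out 1 array gave 0 to 1, with the 1 found without vehicle replicate 3 of 12 months. For age in THC mice it was 2 with the slide as a random block, and 1 with quantile normalization alone, the series matrix, no filter or array weights. Outside the 777 values, Tek by age in THC mice had a limma adjusted p of 0.194 with the fixed and 0.134 with the random slide block. The second brightest Acta2 probe had a limma adjusted p of 0.189 for THC at 12 months with the fixed block.

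The vascular muscle median moved to −0.35 for THC at 12 months and to 0.33 for age in vehicle mice, both with quantile normalization alone and with the series matrix. The endothelial median was 0.0450 for THC at 12 months with the next brightest probes, and 0.15 for age in vehicle mice without slide 1. Leaving out 1 array moved it from −0.13 to 0.0929 for THC at 2 months and from −0.12 to 0.15 for age in vehicle mice.

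Several endothelial differences near 0 turned sign. For THC at 12 months Pecam1 was at 0.00621 with the slide as a fixed block, and Cldn5 ran from −0.15 to 0.0536 when 1 array was left out. For THC at 2 months Cldn5 was at 0.0221 with the fixed block, 0.0190 with the random block, 0.0548 with array weights and 0.0838 without slide 1, and Pecam1 at 0.00633 with the fixed block, 0.060 with array weights and 0.10 without slide 1. Leaving out 1 array gave −0.21 to 0.12 for Cldn5, −0.29 to 0.13 for Pecam1, −0.12 to 0.12 for Flt1, −0.000557 to 0.14 for Ly6c1, −0.17 to 0.0616 for Myl9 and −0.10 to 0.55 for Acta2. For age in vehicle mice Pecam1 was at 0.11 with array weights and 0.27 without slide 1, and Tek at 0.00568 with array weights. Leaving out 1 array gave −0.13 to 0.21 for Cldn5, −0.16 to 0.18 for Pecam1 and −0.11 to 0.0397 for Tek. No paired analysis was possible because the labels give no replicate numbers, and the slide was fitted as a block instead. Signal over background limits Tagln, detected on 3 arrays. The cause of these changes was not tested.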
